A study of Homo sapiens with 6 samples.

Results

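The genes described here encode 3 groups of proteins that decide how pre-messenger RNA is spliced: SR proteins, heterogeneous nuclear ribonucleoproteins (hnRNPs) and CDC-like kinases (CLKs). Members were chosen by symbol, with earlier results of these data known. They are every gene whose symbol starts with SRSF or HNRNP followed by a letter or a digit. CLK1, CLK2, CLK3, CLK4, TRA2A and TRA2B were added. The rule matched 40 of 16907 gene symbols. SRSF12, with a total of 4 counts over 6 libraries, and HNRNPCL2, with 1, fell below the minimum of 10 counts, so 38 members remained among 14853 genes tested. They were 13 SR proteins (TRA2A and TRA2B included), 21 hnRNPs and 4 CLK kinases.

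SR proteins carry RNA-recognition motifs and a tail rich in arginine and serine, bind exonic enhancers and help the spliceosome to recognise exons. Many hnRNPs bind exonic or intronic silencers and oppose that choice, although either family can act both ways depending on where it binds. CLK kinases sit in the nucleus and phosphorylate the serines of SR proteins, which releases them from nuclear speckles and changes their activity. Genes of these families are known for control of their own RNA, through retained introns and through exons that carry an early stop codon and send the transcript to nonsense-mediated decay.

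RNA was sequenced from LX-2 cells, an established human line of hepatic stellate origin, that is, of the cell type that turns into collagen-secreting myofibroblasts in injured liver. In 3 libraries the cells had received a control small interfering RNA (siControl), and in 3 others one directed at OGT (siOGT), the enzyme that adds O-linked N-acetylglucosamine to proteins. Both were delivered with JetPrime at 20 nM and left for 72 h, in medium with fetal bovine serum. The study's reagent list gives a Silencer Select negative control for siControl and an ON-TARGETplus pool for siOGT, so silencing of OGT and the chemistry of the reagents cannot be told apart. Replicates were separate experiments in 1 cell line, and libraries of the same number were treated as a pair.

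Totals ran from 25996770 to 27966801 expected counts per library. OGT stood at 177, 137 and 121 CPM (counts scaled by the library total and its TMM factor) in siControl and at 39.9, 27.0 and 29.2 CPM in siOGT, in replicate order. That is a log2 fold change of -2.18 ± 0.07 (standard error, SE, n = 3 pairs, adjusted p = 2.71e-12, edgeR). Of 8 stellate cell and myofibroblast markers, 7 were above 1 CPM and only DES was below it in every library, and their summed level was 6463 to 7818 CPM in siControl and 5834 to 6868 CPM in siOGT. Summed markers of hepatocytes, cholangiocytes, endothelial cells and leukocytes lay between 3.00 and 8.17 CPM in each library. Of these markers, 1 of 6 for hepatocytes and 1 of 4 for cholangiocytes reached 1 CPM in at least 1 library. So did 3 of 4 for endothelial cells and 1 of 5 for macrophages and leukocytes.

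Counts here are per gene, so a transcript that is translated and one of the same gene that is destined for decay both add to the total. In the GENCODE 44 annotation (GRCh38), 30 of the 38 members (78.9%) have at least 1 transcript marked for nonsense-mediated decay, and 29 (76.3%) at least 1 with a retained intron. All 13 SR proteins have a decay transcript, as do 14 of 21 hnRNPs and 3 of 4 CLK kinases. The shares over the 14087 tested genes found in the annotation were 44.9% and 57.9%, and over the 9508 at least as abundant as the lowest member 50.2% and 64.2%. Members also have more annotated transcripts, with a median of 13 against 9 in that second set.

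For 13 members the annotation holds an exon of a decay transcript that overlaps no exon of a protein-coding transcript of the gene and contains the early stop. Overlap with retained-intron and other transcripts was not checked. These were 7 SR proteins, 4 hnRNPs and 2 CLK kinases. The coding stretch of such exons, up to and including the stop, is printed for members that show the device in the kinases and in the SR proteins they act on. Each runs 5′ to 3′ on the gene's own strand of GRCh38, with the stop codon in capitals. The stretches lie at chr5:178620565-178620673 (CLK4, minus strand), chr15:74626989-74627050 (CLK3, plus), chr20:43459153-43459304 (SRSF6, plus), chr6:36599821-36599854 (SRSF3, plus), chr2:38749319-38749346 (SRSF7, minus) and chr3:185931772-185931852 (TRA2B, minus).
CLK4: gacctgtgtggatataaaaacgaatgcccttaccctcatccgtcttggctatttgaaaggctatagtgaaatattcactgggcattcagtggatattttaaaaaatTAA
CLK3: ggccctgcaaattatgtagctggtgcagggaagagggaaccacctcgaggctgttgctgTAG
SRSF6: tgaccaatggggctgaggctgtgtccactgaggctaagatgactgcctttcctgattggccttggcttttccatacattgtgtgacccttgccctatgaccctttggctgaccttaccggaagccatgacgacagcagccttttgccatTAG
SRSF3: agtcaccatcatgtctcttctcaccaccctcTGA
SRSF7: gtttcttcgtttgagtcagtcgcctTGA
TRA2B: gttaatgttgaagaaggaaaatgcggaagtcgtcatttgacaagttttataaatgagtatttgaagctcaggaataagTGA
In each the reading frame closes soon after the exon begins, from 28 bases into it in SRSF7 to 152 bases in SRSF6. Reads over these exons cannot be separated from the rest of the gene in the deposited values, so inclusion of the exons was not analysed here.

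RNA of 15 of the 38 members (39.5%) differed between siOGT and siControl at an adjusted p of at most 0.05, where 25.4% of all genes tested did. Of these members 5 were higher in siOGT, 13.2% against 12.7% of all genes, and 10 were lower, 26.3% against 12.7%. The CLK kinases gave 3 higher of 4, the SR proteins 2 higher and 3 lower of 13, and the hnRNPs 7 lower and none higher of 21. The median log2 fold change was 0.38 over the CLK kinases, 0.08 over the SR proteins and -0.16 over the hnRNPs, beside 0.01 over all genes tested. No member changed by 2-fold. The median size of the change was 0.30 on the log2 scale over the called members and 0.34 over all 3766 called genes.

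The calls rest on the pairing of the libraries. Without the replicate block edgeR called 0 members (11 had an unadjusted p under 0.05, and the lowest adjusted p was 0.0924), where it called 0.875% of all genes. DESeq2 with the block called 11 of the 15, 2 higher and 9 lower, against 16.3% of all genes. Without the pair of replicate 1, 6 of the 15 members kept their call, 1 higher (CLK1) and 5 lower, and 12.5% of all genes were called.

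**Figure D1:**
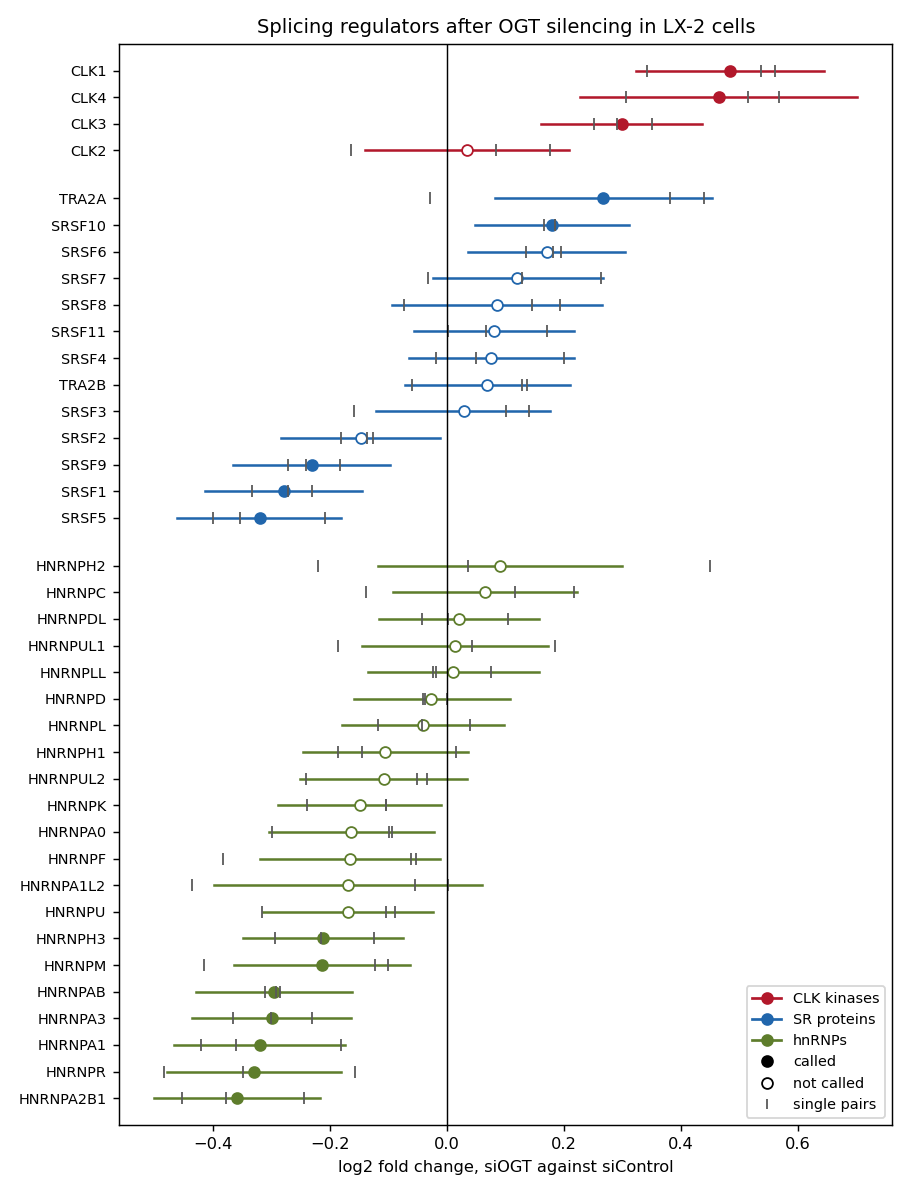
Log2 fold change of each of the 38 members in siOGT against siControl (horizontal axis), grouped by family. Points are edgeR estimates, filled where called at an adjusted p of at most 0.05, lines are 95% confidence intervals and grey ticks are the 3 single pairs; CLK1, CLK3 and CLK4 lie to the right of 0 and the 7 called hnRNPs to the left.

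CLK1, CLK3 and CLK4 were each higher in siOGT in all 3 pairs. CLK1, on chromosome 2 (200853009 to 200864691, minus strand), is the member of the family best known for retaining introns in its own transcript. Its level was 29.7, 24.8 and 29.1 CPM in siControl and 43.9, 31.5 and 42.3 CPM in siOGT. Every siOGT library lay above every siControl library, the lowest siOGT library being replicate 2. CLK1 rose by 39.9%, a log2 fold change of 0.48 ± 0.08 (SE, 95% confidence interval 0.32 to 0.65, n = 3 pairs, adjusted p = 1.96e-04), and among the 10 alternative fits it lost its call only in edgeR without the block (adjusted p = 0.119).

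CLK4 (chromosome 5, 178602664 to 178630615, minus strand) is a close relative of CLK1 and the least abundant of the members. It stood at 8.64, 6.09 and 8.85 CPM in siControl and at 12.8, 8.73 and 11.0 CPM in siOGT. Replicate 2 was lowest in both groups, so the ranges overlap although each pair moved upwards. CLK4 rose by 38.0%, a log2 fold change of 0.47 ± 0.11 (SE, adjusted p = 0.00567). The adjusted p was 0.0505 in DESeq2 with the block and 0.0808 without the pair of replicate 1.

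CLK3 (chromosome 15, 74598500 to 74645414, plus strand), another kinase of the family, had 71.2, 50.4 and 61.2 CPM in siControl and 90.8, 59.97 and 74.8 CPM in siOGT. The group ranges overlap, and the pairs kept their order, with replicate 1 highest and replicate 2 lowest in both groups. CLK3 rose by 23.0%, a log2 fold change of 0.30 ± 0.07 (SE, adjusted p = 0.00297, and 0.0616 without the pair of replicate 1). Its expected counts were not whole numbers in any of the 6 libraries, so the counting divided some of its reads, and the SE does not include the error of that division.

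CLK2 (chromosome 1, 155262868 to 155278491, minus strand) was not called. It had 27.3, 27.5 and 27.2 CPM in siControl and 29.0, 24.5 and 30.7 CPM in siOGT, with replicate 2 on the other side of 0 from the other pairs. Its log2 fold change was 0.04, with a 95% confidence interval of -0.14 to 0.21 (adjusted p = 0.805), and it was -0.04 without the pair of replicate 3. The upper bound for CLK2 lies below the lower bound for CLK1, but the difference between the genes was not tested. Per kilobase of the canonical transcript, CLK3 had the highest level of the kinases in siControl, 32.8 ± 5.61 CPM per kilobase (SD, n = 3). CLK1 had 15.1 ± 1.44, CLK2 12.7 ± 0.07 and CLK4 3.14 ± 0.61 on the same scale. In siOGT the order was the same, with levels of 40.5 ± 8.31 for CLK3, 21.2 ± 3.64 for CLK1, 13.0 ± 1.48 for CLK2 and 4.33 ± 0.82 for CLK4. The SDs of neighbours in this order do not reach each other in either group, but they hold no error of the length used. Before division by length, CLK1 had 27.9 ± 2.66 and CLK2 27.3 ± 0.15 CPM in siControl (SD, n = 3). The canonical transcripts have 1847 bases for CLK1, 2154 for CLK2 and 1854 for CLK3, while all exonic bases number 5117, 3658 and 19697. The order thus depends on the length used.

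Summed over the 4 kinases, the level averaged 124 ± 14.2 CPM over siControl and 153 ± 26.3 CPM over siOGT libraries (SD, n = 3). In bulk RNA a change in the share of cells that express a gene and a change in RNA per cell cannot be told apart, for these genes and for those below.

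**Figure D2:**
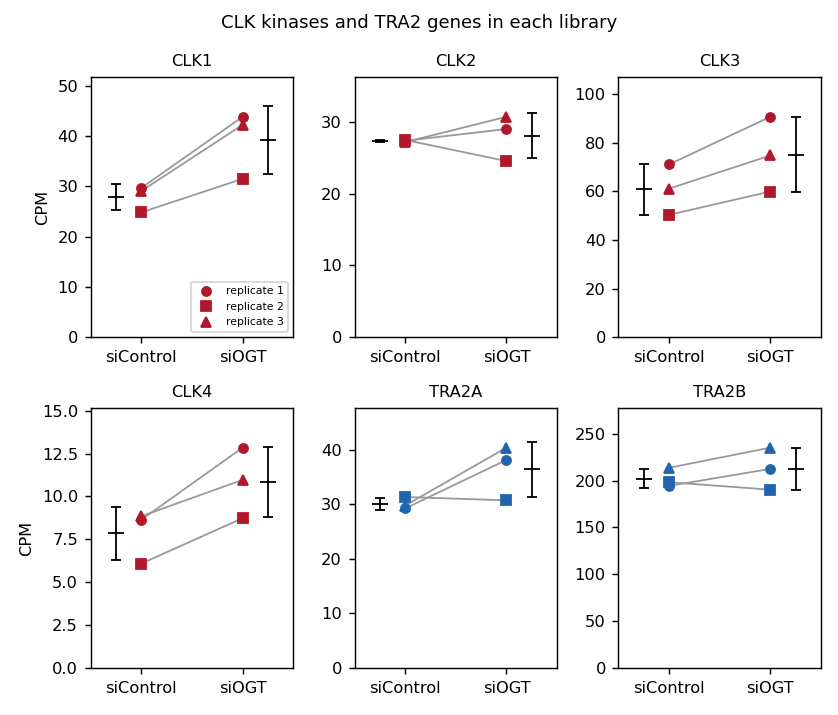
Level in CPM (vertical axes, from 0) of the CLK and TRA2 genes in each siControl and siOGT library. Symbols and grey lines join libraries of 1 replicate number, and black marks give the mean and SD of 3 libraries; CLK1, CLK3 and CLK4 rise in every pair, whereas replicate 2 moves against the others for CLK2, TRA2A and TRA2B.

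TRA2A and TRA2B are SR-like activators that bind GAA-rich exonic enhancers and are close paralogues. TRA2A (chromosome 7, 23504780 to 23532041, minus strand) had 29.2, 31.3 and 29.7 CPM in siControl and 38.1, 30.7 and 40.4 CPM in siOGT. Replicates 1 and 3 were higher in siOGT and replicate 2 was level, with a log2 ratio of -0.03 in that pair. TRA2A rose by 20.4%, a log2 fold change of 0.27 ± 0.09 (SE, adjusted p = 0.0326). The call was lost without the pair of replicate 1 (adjusted p = 0.243) or 3 (0.223) and in DESeq2 with the block (0.111).

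TRA2B (chromosome 3, 185914558 to 185938103, minus strand), whose decay exon is printed above, had 194, 198 and 214 CPM in siControl and 213, 190 and 235 CPM in siOGT. The groups overlap and replicate 2 was lower in siOGT. Its log2 fold change was 0.07, with a 95% confidence interval of -0.07 to 0.21 (adjusted p = 0.49). Per kilobase of the canonical transcript TRA2B stood at 48.4 ± 2.45 CPM and TRA2A at 16.9 ± 0.61 CPM in siControl (SD, n = 3).

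Among the SRSF genes 3 fell and 1 rose. SRSF5 (chromosome 14, 69726900 to 69772005, plus strand), an exon-enhancer binding protein known as a gene induced early by insulin and growth signals, had 83.9, 92.0 and 92.0 CPM in siControl. Its siOGT libraries had 65.6, 79.7 and 69.7 CPM, all below the lowest siControl library. SRSF5 fell by 19.9%, a log2 fold change of -0.32 ± 0.07 (SE, adjusted p = 0.002).

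SRSF1 (chromosome 17, 58000919 to 58007346, minus strand), the founding SR protein and a regulator of both constitutive and alternative splicing, had 173, 162 and 152 CPM in siControl. In siOGT it had 143, 129 and 130 CPM, so the groups do not overlap. SRSF1 fell by 17.6%, a log2 fold change of -0.28 ± 0.06 (SE, adjusted p = 0.00392, and 0.0569 without the pair of replicate 1). An unnamed gene on the same strand covers 32.7% of its exonic bases in GENCODE 44, and the expected counts of SRSF1 were whole numbers in every library.

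SRSF9 (chromosome 12, 120461672 to 120495946, minus strand), a smaller SR protein with a short arginine-serine tail, had 90.5, 116 and 121 CPM in siControl and 76.6, 102 and 101 CPM in siOGT. Each pair was lower in siOGT, but replicate 1 was low in both groups and the ranges overlap. SRSF9 fell by 14.8%, a log2 fold change of -0.23 ± 0.06 (SE, adjusted p = 0.0129, and 0.121 without the pair of replicate 1). GATC, on the opposite strand, covers 43.6% of its exonic bases, and the counting used strand.

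SRSF10, which acts as a general splicing repressor when dephosphorylated, was the SRSF gene that rose, by 13.3% (log2 fold change 0.18 ± 0.06, SE, adjusted p = 0.0437). Its pairs gave log2 ratios of 0.19, 0.17 and 0.19, yet the group ranges overlap, and its counts were not whole numbers in 5 of 6 libraries. With 1 pair left out its adjusted p was 0.254, 0.121 and 0.0547 for replicates 1, 2 and 3. SRSF6 lay just outside the threshold, with log2 ratios of 0.20, 0.18 and 0.13 and a log2 fold change of 0.17 ± 0.06 (SE, adjusted p = 0.0567). Over all 13 SR proteins 9 estimates were above 0 and 4 below it. The summed level averaged 1891 ± 70.8 CPM over siControl and 1881 ± 105 CPM over siOGT libraries (SD, n = 3), so the family total differed by less than its spread.

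Among the 21 hnRNPs 16 estimates were below 0 and 5 above it. Of these genes 12 were lower in all 3 pairs and none was higher in all 3, where over all genes tested 26.6% were lower and 27.4% higher in every pair. In 9 of them every siOGT library lay below every siControl library, and in none did the groups separate the other way. Over all genes the groups did not overlap in 23.9%, and in 11.8% with siOGT below siControl. The summed hnRNP level was 5985, 6423 and 6350 CPM in siControl and 5616, 5858 and 5719 CPM in siOGT, so that the totals of the groups do not overlap either. All 38 members together made up 0.767% to 0.845% of the scaled counts of a library.

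HNRNPA2B1, HNRNPA1 and HNRNPA3 belong to the A/B group of abundant hnRNPs, which bind UAG-like motifs and commonly favour exon skipping. HNRNPA0, of the same group, was not called (log2 fold change -0.16, adjusted p = 0.0838, edgeR). HNRNPA2B1 (chromosome 7, 26171151 to 26201529, minus strand) had the largest fall of any member. It had 392, 406 and 429 CPM in siControl and 302, 343 and 313 CPM in siOGT. The groups do not overlap, and the pair of replicate 2 was the closest. HNRNPA2B1 fell by 22.0%, a log2 fold change of -0.36 ± 0.07 (SE, 95% confidence interval -0.50 to -0.22, adjusted p = 9.31e-04), and only edgeR without the block ended the call (adjusted p = 0.0924).

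HNRNPA1 (chromosome 12, 54280193 to 54287088, plus strand) had 532, 597 and 614 CPM in siControl and 415, 527 and 459 CPM in siOGT. Its highest siOGT library, replicate 2, lay just under the lowest siControl library. HNRNPA1 fell by 19.9%, a log2 fold change of -0.32 ± 0.07 (SE, adjusted p = 0.00264, and 0.0693 without the pair of replicate 1). Its counts were not whole numbers in any library, so the counting divided some of its reads. The same held for HNRNPA1L2, an intronless copy that was not called. HNRNPA1L2 had 12.9 ± 2.11 CPM in the siControl and 11.4 ± 0.20 CPM in the siOGT libraries (SD, n = 3). An unnamed gene on the same strand covers 100% of the exonic bases of HNRNPA1L2. With which genes the reads of HNRNPA1 and HNRNPA1L2 were shared was not tested.

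HNRNPA3 (chromosome 2, 177212694 to 177223959, plus strand) had 186, 201 and 204 CPM in siControl and 151, 172 and 158 CPM in siOGT, with no overlap. It fell by 18.7%, a log2 fold change of -0.30 ± 0.06 (SE, adjusted p = 0.00255). NFE2L2, on the opposite strand, covers 53.6% of its exonic bases. HNRNPAB (chromosome 5, 178204533 to 178211163, plus strand), a related protein that binds single-stranded nucleic acid, had 232, 231 and 257 CPM in siControl and 190, 186 and 210 CPM in siOGT. Its pairs were the most even of the called hnRNPs, with log2 ratios of -0.28, -0.31 and -0.29. HNRNPAB fell by 18.5%, a log2 fold change of -0.29 ± 0.06 (SE, adjusted p = 0.00247).

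HNRNPR (chromosome 1, 23303771 to 23344336, minus strand), a relative of SYNCRIP that takes part in the processing and transport of messenger RNA, had 182, 183 and 206 CPM in siControl and 143, 164 and 148 CPM in siOGT. The groups do not overlap, and replicate 2 moved least. HNRNPR fell by 20.4%, a log2 fold change of -0.33 ± 0.07 (SE, adjusted p = 0.0025). Like HNRNPA3 and HNRNPAB, it lost its call only in edgeR without the block, where the adjusted p was 0.121 for HNRNPR, 0.132 for HNRNPA3 and 0.141 for HNRNPAB.

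HNRNPM (chromosome 19, 8444767 to 8489114, plus strand), which is known for promoting mesenchymal isoforms such as those of CD44, had 149, 156 and 183 CPM in siControl and 137, 145 and 137 CPM in siOGT. The groups do not overlap, but replicate 3 carried most of the shift, with a log2 ratio of -0.41 there against -0.12 and -0.10 in the other pairs. HNRNPM fell by 13.7%, a log2 fold change of -0.21 ± 0.07 (SE, adjusted p = 0.0368). Without the pair of replicate 3 the log2 fold change was -0.12 (adjusted p = 0.178), and without that of replicate 1 the adjusted p was 0.0982.

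HNRNPH3 (chromosome 10, 68331174 to 68343193, plus strand) belongs to the H/F group, which binds runs of G. It had 109, 108 and 115 CPM in siControl and 94.3, 99.1 and 94.1 CPM in siOGT, with no overlap. HNRNPH3 fell by 13.6%, a log2 fold change of -0.21 ± 0.07 (SE, adjusted p = 0.0237, 0.16 without the pair of replicate 1 and 0.0546 without that of replicate 3). HNRNPF, HNRNPH1 and HNRNPH2, of the same group, were not called (log2 fold changes -0.166, -0.105 and 0.091, adjusted p = 0.11, 0.276 and 0.55, edgeR).

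**Figure D3:**
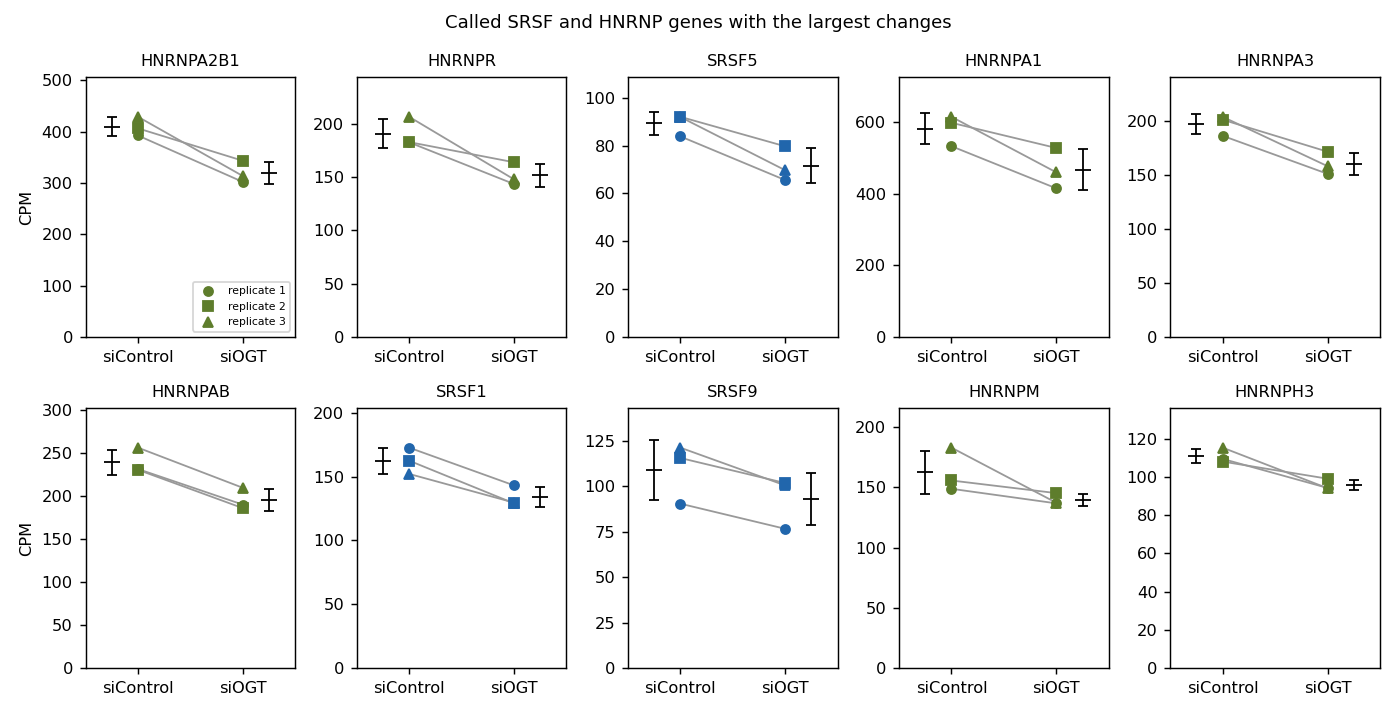
Level in CPM (vertical axes, from 0) of the 10 called SRSF and HNRNP genes with the largest changes, in each siControl and siOGT library. Symbols and grey lines join libraries of 1 replicate number, and black marks give the mean and SD of 3 libraries; every line descends, and SRSF9 is the gene whose groups overlap.

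The estimates of the 23 members without a call ran from -0.17 to 0.17 on the log2 scale. The 95% confidence interval lay on 1 side of 0 for 6 of them (SRSF2, SRSF6, HNRNPA0, HNRNPF, HNRNPK and HNRNPU). HNRNPUL1, HNRNPC and HNRNPK were the most abundant of these. HNRNPUL1, an RNA-binding protein related to the nuclear scaffold protein HNRNPU, had a mean of 1030 ± 176 CPM without and 1033 ± 59.2 CPM with OGT silencing (SD, n = 3, log2 fold change 0.01, 95% confidence interval -0.14 to 0.17). Its expected counts were not whole numbers in 5 of 6 libraries, so the counting divided some of its reads. HNRNPC, which binds U tracts and keeps cryptic exons out of messenger RNA, had 615 ± 47.7 and 643 ± 54.9 CPM (log2 fold change 0.07, interval -0.09 to 0.22). HNRNPK, a KH-domain protein that binds C-rich RNA, had 498 ± 8.97 and 449 ± 16.2 CPM. Its groups do not overlap, yet its adjusted p was 0.113 (log2 fold change -0.15, interval -0.29 to -0.01).

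The ratios of single pairs were often smallest in replicate 2. In 12 of the 15 called members the log2 ratio nearest 0 was that of the pair of replicate 2, and 14 of the 15 had the same sign in all 3 pairs, the exception being TRA2A. Neither count was made over all called genes, so neither is shown to be particular to the members. OGT itself was at its lowest siOGT level in replicate 2, 27.0 CPM against 39.9 and 29.2 CPM, and its log2 ratio of -2.34 was the largest fall of the 3 pairs. What part replicate 2 has in the smaller ratios was not tested. Without that pair 14 members were called, all of them among the 15, against 22.5% of all genes. Without the pair of replicate 3, 13 were called against 23.8% of all genes. Of these 11 were among the 15, HNRNPM, HNRNPH3, TRA2A and SRSF10 having lost the call, and HNRNPA0 (adjusted p = 0.0419) and SRSF6 (0.0384) were called in addition.

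Promoters are shown for CLK1 and CLK4, the members with the largest rises, and for HNRNPA2B1 and HNRNPA3, A/B hnRNPs that fell, so that genes that moved in opposite directions can be compared. They are RefSeq sequences on GRCh38.p14, from 250 bases before to 50 bases after an annotated start, 5′ to 3′ on the gene's strand. Capitals mark GGGCGG (the GC box) and CCAAT (the CCAAT box) on either strand, so the reverse forms CCGCCC and ATTGG are in capitals too. The windows are chr2:200864609-200864908 (CLK1, minus strand), chr5:178627001-178627300 (CLK4, minus), chr7:26200697-26200996 (HNRNPA2B1, minus) and chr2:177212544-177212843 (HNRNPA3, plus).
CLK1: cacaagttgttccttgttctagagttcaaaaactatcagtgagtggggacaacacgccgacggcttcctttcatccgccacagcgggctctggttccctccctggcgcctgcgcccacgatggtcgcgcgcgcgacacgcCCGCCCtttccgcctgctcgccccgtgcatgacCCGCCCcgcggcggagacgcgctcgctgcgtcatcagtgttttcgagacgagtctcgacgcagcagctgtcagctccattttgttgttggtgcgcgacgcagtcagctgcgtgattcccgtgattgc
CLK4: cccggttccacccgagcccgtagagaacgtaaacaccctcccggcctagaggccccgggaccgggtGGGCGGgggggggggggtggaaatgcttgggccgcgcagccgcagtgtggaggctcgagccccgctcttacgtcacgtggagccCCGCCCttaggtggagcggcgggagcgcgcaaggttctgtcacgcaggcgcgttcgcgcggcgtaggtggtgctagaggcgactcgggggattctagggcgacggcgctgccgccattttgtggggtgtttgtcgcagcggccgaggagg
HNRNPA2B1: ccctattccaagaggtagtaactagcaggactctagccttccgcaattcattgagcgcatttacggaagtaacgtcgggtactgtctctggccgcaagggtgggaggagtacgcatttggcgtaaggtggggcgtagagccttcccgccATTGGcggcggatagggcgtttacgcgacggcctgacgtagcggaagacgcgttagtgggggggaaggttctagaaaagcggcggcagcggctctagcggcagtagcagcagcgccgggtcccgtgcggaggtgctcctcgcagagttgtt
HNRNPA3: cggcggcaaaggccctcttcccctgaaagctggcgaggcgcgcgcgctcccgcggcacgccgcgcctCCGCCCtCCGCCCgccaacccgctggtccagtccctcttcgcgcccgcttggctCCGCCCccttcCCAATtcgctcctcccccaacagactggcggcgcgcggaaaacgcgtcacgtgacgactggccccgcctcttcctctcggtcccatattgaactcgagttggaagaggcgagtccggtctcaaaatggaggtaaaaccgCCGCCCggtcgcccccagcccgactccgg
The 4 windows are 62.7%, 70.7%, 60.3% and 70.0% G or C in that order. RefSeq promoters were matched for 35 members, 51 promoters in all, and not for TRA2A, HNRNPA1 and SRSF2. GGGCGG was in 64.7% of those 51 and in 45.0% of all 35116 promoters of the same length, and CCAAT in 45.1% and 34.6%. For this and for the motifs below, the set of all promoters was not matched to the members in level or in G and C content. By gene, a motif counts if any promoter of the gene holds it, and members differ in their number of promoters. The same count was not made over all genes. GGGCGG was in a promoter of 26 of the 35 members. Among them were 3 of the 4 called higher members with a promoter (CLK1, CLK3 and CLK4) and 3 of the 9 called lower ones. CCAAT was in a promoter of 20 of the 35, among them 1 of the 4 (CLK3) and 5 of the 9 (HNRNPA2B1, HNRNPA3, HNRNPAB, HNRNPH3 and HNRNPR). The CCAAT and the GGGCGG of CLK3 are in different promoters. Another 4 motifs were searched in the same windows, also on both strands. TGACG, the core of the cyclic AMP response element and part of the full element TGACGTCA, was in 49.0% of the 51 member promoters and in 24.6% of all promoters. By gene it was in a promoter of 22 of the 35 members. These included 3 of the 4 higher members (CLK1, CLK3 and CLK4) and 6 of the 9 lower ones, so it was found on both sides. The full element TGACGTCA was in 0 of the 51 and in 1.85% of all promoters. CCGGAAG, the core bound by ETS factors, was in 11.8% against 10.3%, and TATAAA, the TATA box, in 11.8% against 11.5%. The motifs shown in capitals were chosen from the 6 after their counts were known. These counts describe letters in a window and were not tested.

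Other genes of the splicing pathway were counted in the same fit, in which 25.4% of all genes were called, 12.7% in each direction. In edgeR without the block 0 genes of the 5 lists below were called. In list order 3, 2, 5, 5 and 1 genes then had an unadjusted p under 0.05, and DESeq2 without the block called 2, 0, 1, 1 and 0. Of 11 hnRNP proteins with other symbols, 1 rose and 2 fell, with a median log2 fold change of -0.06. PTBP2, the neuronal homologue of the polypyrimidine tract binding protein, rose (log2 fold change 0.39 ± 0.07, SE, adjusted p = 9.54e-04). RBMX, also called hnRNP G, fell (-0.21 ± 0.06, adjusted p = 0.0226).

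Of 9 kinases, importers and associated proteins that act on SR proteins, 2 rose and 1 fell (33.3% called). Without the pair of replicate 1 edgeR called 0 of them, with 2 at an unadjusted p under 0.05, and DESeq2 with all 3 pairs called 2. DYRK1A, a kinase that phosphorylates several splicing factors, rose (log2 fold change 0.31 ± 0.07, SE, adjusted p = 0.00298). The others were cyclophilins with an arginine-serine domain, neither kinases nor importers: PPIG rose (0.26 ± 0.07, adjusted p = 0.00822) and NKTR fell (-0.20 ± 0.07, adjusted p = 0.0333).

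Of 35 SR-related and other splicing regulators tested, 9 rose (25.7%) and 2 fell (5.71%), with a median log2 fold change of 0.07. The 11 calls dropped to 2 without the pair of replicate 1 and to 5 without that of replicate 2. The largest of these changes were in SCAF1 (0.40 ± 0.06, SE, adjusted p = 2.44e-04), an SR-related partner of RNA polymerase II, SRRM1 (0.30 ± 0.07, adjusted p = 0.00376), a coactivator that bridges SR proteins and snRNPs, and SREK1 (0.27 ± 0.06, adjusted p = 0.0048), which has an arginine-serine domain and a regulatory role in splicing.

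Of 42 core spliceosome genes 4 rose and 3 fell, 16.7% in all. The 7 calls dropped to 1 without the pair of replicate 1 and to 4 without that of replicate 2. SNRNP70, the U1 protein contacted by SR proteins, fell (log2 fold change -0.32 ± 0.06, SE, adjusted p = 0.00141), SF3A2 of the U2 particle rose (0.27 ± 0.07, adjusted p = 0.00593) and so did the helicase DHX16 (0.25 ± 0.07, adjusted p = 0.00906). Of 15 genes of nonsense-mediated decay and the exon junction complex 1 was called, SMG9, a regulator of the kinase SMG1, which rose (0.33 ± 0.06, adjusted p = 0.00127). The median over that list was 0.04.

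**Figure D4:**
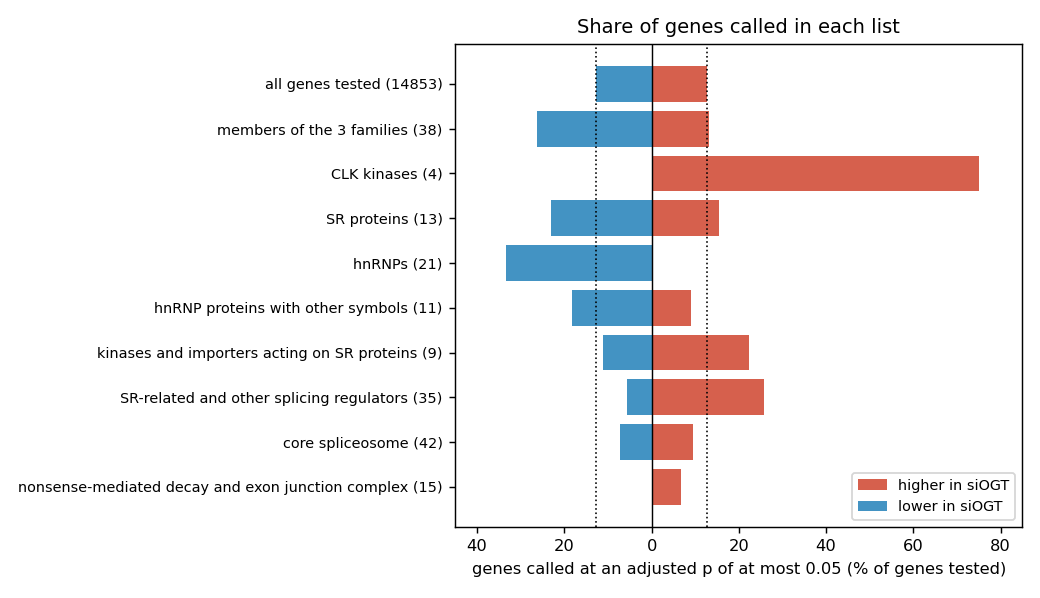
Share of the genes tested in each list (number in brackets) that were called at an adjusted p of at most 0.05, in percent, higher in siOGT to the right and lower to the left; dotted lines give the shares over all 14853 genes. The CLK kinases extend only to the right, at 75%, and the hnRNPs only to the left, at 33.3%.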

How the data were processed

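LX-2 RNA was enriched with oligo-dT and sequenced on a stranded library by the authors, who aligned reads to hg38 with Bowtie2 2.3.5.1 and deposited RSEM 1.3.1 expected counts per gene, which split reads shared by several genes and were not normalized. The authors' own table of fold changes and adjusted p-values was not used. Here the expected counts were rounded, genes with a total below 10 removed, and TMM factors (0.979 to 1.02) applied. edgeR 4.0.16 (R 4.3.3) tested 14853 genes by its two-sided quasi-likelihood F test, blocked on replicate number and adjusted by Benjamini-Hochberg, and a gene is called at an adjusted p of at most 0.05. SE and 95% intervals come from the F statistic. Log2 ratios of single pairs use a prior count of 2.

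The study paired libraries of one replicate. Deviations from group means correlated by 0.69, 0.53 and 0.33 between same-numbered libraries over 12373 genes, which are not independent replicates. Between libraries of different numbers the correlations ran from -0.50 to 0.05. Deviations within a group of 3 libraries sum to 0, so these correlations are not independent of each other. Libraries of a group all differed by more than counting noise (chi-square per degree of freedom at least 18.3). Members, lists and markers were chosen with earlier results of these data known. Genes named were OGT, all called members, the CLK and TRA2 genes, the 3 most abundant members not called, and at most 3 called genes with the largest change per other list. Other members named for a sequence, interval, hnRNP group, shared read or change between fits were named after their values were seen. One gene that this rule names is not reported here. Annotation came from GENCODE 44, which may differ from the authors' gene models, and promoters from RefSeq. The alternatives were DESeq2 1.42.0, no block, other scaling and filters, a stricter threshold and leaving out each pair.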

Additional observations from a re-analysis of the deposited data

How the results depend on the processing

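OGT, and the direction of each called member, held in all 10 alternative fits. Without the replicate block edgeR called 0 members (0 higher, 0 lower; 0 SR proteins, 0 hnRNPs, 0 CLK kinases) and 130 genes, with 11 members at an unadjusted p under 0.05 (3 SR proteins, 6 hnRNPs and 2 CLK kinases) against 2691 genes. DESeq2 without the block called 5 members (1 higher, 4 lower; 0 SR proteins, 2 of which had an unadjusted p under 0.05, 4 hnRNPs, 1 CLK kinase) and 849 genes, and with the block 11 members (2 higher, 3 SR proteins) and 2415 genes. At an adjusted p of at most 0.01, 10 members (3 higher, 2 SR proteins) and 2083 genes were called. Leaving out 1 pair gave 6 to 14 members (1 to 4 higher, 5 to 10 lower; 1 to 4 SR proteins, 4 to 7 hnRNPs, 1 to 3 CLK kinases) and 1803 to 3439 genes, the lowest of each without replicate 1. With 1 pair left out, log2 fold changes of uncalled members changed sign for CLK2 (-0.044 to 0.128), SRSF3 (-0.029 to 0.119), HNRNPC (-0.017 to 0.165), HNRNPDL (-0.022 to 0.047), HNRNPH2 (-0.093 to 0.238), HNRNPLL (-0.022 to 0.026) and HNRNPUL1 (-0.077 to 0.113). Median-ratio size factors, no filter and edgeR's own filter changed no call of a member; library totals alone ended that of HNRNPM and added SRSF6. At an adjusted p of at most 0.01 the other lists kept 3 of 11 (SR-related regulators), 3 of 7 (core spliceosome) and 2 of 3 calls (kinases and importers). No cause of these differences was tested. CLK4, the least abundant member, had the widest interval of its fold change.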
